A study of Mus musculus with 2 samples.

Results

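The interleukin genes are the genes of secreted signalling proteins of the immune system, of their receptor chains and of the soluble antagonists and decoys that hold them in check. They were taken as the rows of the expression table whose identifier begins with Il and a number, Il6st included, and 85 of the 23176 genes of the table met that rule. The authors' test gave 28 of them the status OK (32.9%, against 55.0% of all genes), and the other 57 had the status NOTEST. Of the 85, 39 were sorted as ligands, 39 as receptor chains, 6 as antagonists or decoys and 1 as an enzyme (Il4i1, an amino acid oxidase).

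The values come from mRNA sequencing of a pair of mouse lines made from embryonic day 14 striatal tissue of the 129SvEv/CD1 strain label. STHdhQ111 cells carry the genotype label HdhQ111/Q111, that is huntingtin with an expanded polyglutamine tract on both alleles, and STHdhQ7 cells carry HdhQ7/Q7. Both were used at a passage number below 15, grown at 33 °C and held at 39 °C for 2 days to stop division, and neither had another treatment. Each title names 3 replicates, but the table holds 1 combined value per line, as FPKM, fragments counted per length of transcript and per size of library, so no replicate spread can be shown. Each genotype is 1 line, and the genotype cannot be told apart from the separate history of each line.

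An interleukin acts by bringing together 2 or more receptor chains on the surface of a cell. Receptors of the IL-1 and IL-17 families pass the signal through adaptor proteins to NF-kappaB, and most of the others pass it through JAK kinases to STAT transcription factors. In the brain these genes are best known from microglia and astrocytes, which make or answer IL-1, IL-6, IL-33 and IL-34. In fibroblasts and other stromal cells the receptors for IL-1, IL-6 type, IL-4 and IL-17 cytokines are well known.

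Most markers of white blood cells were near 0 in both lines, but the 2 that had a test were called higher in STHdhQ111. Ptprc (CD45) was listed at 0.00334 FPKM in STHdhQ111 and 0.00360 FPKM in STHdhQ7, and Cd3e, Tyrobp and Kit were listed at 0 in both. Of 13 such markers, 10 were under 0.1 FPKM in both lines, and the summed level of the list was 74.1 FPKM in STHdhQ111 and 27.1 FPKM in STHdhQ7, nearly all of it from Cd68. Cd68, a lysosomal protein that other cells also make, was called higher at 72.4 FPKM in STHdhQ111 and 26.5 FPKM in STHdhQ7 (the authors' deposited table, q = 0.00436). Laptm5, a lysosomal protein of blood cells, was called higher at 1.08 FPKM in STHdhQ111 and 0.175 FPKM in STHdhQ7 (the authors' deposited table, q = 0.00826). Of 8 markers of striatal medium spiny neurons, 5 were under 0.1 FPKM in both lines, with the dopamine receptor Drd1a at 0 in both and Ppp1r1b at 0.0698 FPKM in STHdhQ111 and 0.136 FPKM in STHdhQ7. The enkephalin gene Penk, from the same list, was at 6.49 FPKM in STHdhQ111 and 2.85 FPKM in STHdhQ7 and was not called (the authors' deposited table, q = 0.215). The summed level of that list was 6.75 FPKM in STHdhQ111 and 3.33 FPKM in STHdhQ7. Of 4 neural progenitor markers, 3 were called lower in STHdhQ111 (Nes, Sox2 and Pax6), with Nes at 0.999 FPKM, against 35.99 FPKM in STHdhQ7, while Vim, at 2483 FPKM in STHdhQ111 and 3303 FPKM in STHdhQ7, was not called. Of 4 tested mesenchymal markers, 3 were called higher, among them the collagen gene Col1a2 (532.6 FPKM, against 11.5 FPKM in STHdhQ7). Of 2 tested epithelial markers, 1 was called lower in STHdhQ111 (Krt8, the authors' deposited table, q = 0.00567). The only tested endothelial marker, Tek, was called higher (the authors' deposited table, q = 0.015). The only tested marker of neurons in general, Tubb3, was not called. Among all tested genes, 6.35% were called higher and 7.17% lower. The part of these differences in the values below was not tested, and in bulk RNA fewer cells of a type and less RNA per cell cannot be told apart.

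Most interleukin genes were at or near 0. In STHdhQ111, 23 of the 85 were at 1 FPKM or more (27.1%, against 48.8% of all genes of the table). In STHdhQ7, 21 were (24.7%, against 49.2% of all genes). Both lines shared 19 of these. Receptor chains made up 17 of the 23 in STHdhQ111 and 15 of the 21 in STHdhQ7. Ligands were sparse, with 5 of 39 at that level in STHdhQ111 and 6 of 39 in STHdhQ7.

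Of the 28 tested interleukin genes, 6 had a q of 0.05 or less in the authors' deposited table and are referred to as called. That is 21.4%, where 13.5% of all 12740 tested genes were called. Higher in STHdhQ111 were 4, the antagonist gene Il1rn and the receptor genes Il6st, Il12rb1 and Il13ra1 (6.35% of all tested genes were called higher). Lower in STHdhQ111 were 2, the receptor genes Il18rap and Il12rb2 (7.17% of all tested genes were called lower). None of the 7 tested ligands was called by Cuffdiff, and 0 of them had an unadjusted p under 0.05. The median log2 ratio of the 28, taken on the scale log2(FPKM + 0.5), was 0.09, and that of all tested genes was -0.05. The median size of that ratio, its sign ignored, was 0.77 for the interleukin genes and 0.36 for all tested genes. The standard error that the deposited statistic implies (implied SE, on the log2 scale) was larger for these genes, with a median of 0.55 against 0.44 over all tested genes, and tested interleukin genes had a median level of 4.59 FPKM in STHdhQ111 and 3.18 FPKM in STHdhQ7, below the 9.43 and 9.81 FPKM of all tested genes.

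**Figure D1:**
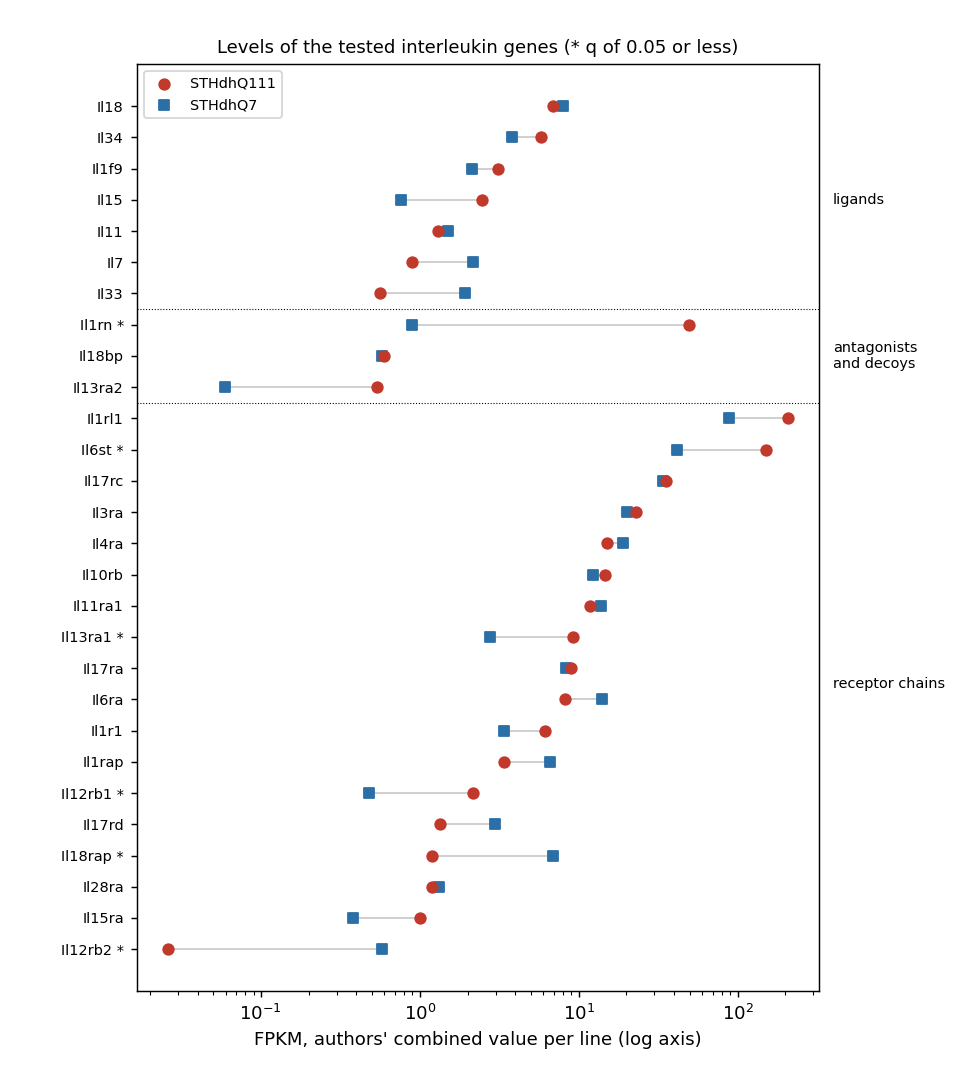
FPKM (log axis, the authors' combined value) of the 28 tested interleukin genes in STHdhQ111 (red circles) and STHdhQ7 (blue squares), grouped as ligands, antagonists and decoys, and receptor chains; asterisks mark a q of 0.05 or less in the authors' deposited table. Il1rl1 has the highest level in both lines (208 FPKM in STHdhQ111 and 88.6 FPKM in STHdhQ7), and Il1rn has the widest gap among the genes marked higher.

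The interleukin 1 receptor antagonist Il1rn showed the steepest gain. It encodes a protein that occupies the IL-1 receptor without starting a signal. Il1rn (mm9 chromosome 2, 24192380 to 24207011) was listed at 49.2 FPKM in STHdhQ111 and 0.895 FPKM in STHdhQ7, a 55.0-fold difference. For Il1rn the authors' deposited table gave a log2 fold change of 5.78 (implied SE 0.54, 95% interval 4.72 to 6.84), and its q was listed as 0. With 1 FPKM added to both values the log2 ratio was 4.73, since the STHdhQ7 value is low. The antagonist was thus the third most abundant interleukin gene in STHdhQ111, after Il1rl1 and Il6st.

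The ligands that Il1rn competes with were near 0. Il1a was listed at 0.0305 FPKM in STHdhQ111 and 0.0124 FPKM in STHdhQ7. Il1b was listed at 0.0156 FPKM in STHdhQ111 and at 0 in STHdhQ7. Neither had a test. Their receptor was present, with Il1r1, the chain that binds IL-1, at 6.14 FPKM in STHdhQ111 and 3.37 FPKM in STHdhQ7. The authors' deposited table gave Il1r1 a log2 fold change of 0.86 (interval -0.05 to 1.78, q = 0.280). Its partner Il1rap, which all signalling receptors of IL-1, IL-33 and IL-36 share, was listed at 3.39 FPKM in STHdhQ111 and 6.57 FPKM in STHdhQ7. The interval of Il1rap, from the authors' deposited table, was -2.04 to 0.13 (the authors' q = 0.346). The decoy receptor Il1r2, which binds IL-1 but lacks a signalling tail, was under 0.1 FPKM in both lines.

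Il1rn has start sites at 3 places in RefSeq (GRCm38.p6), the second 8431 bases after the first and the third 80 bases after the second. The first and the third are shown because an upstream and a downstream start are known to give an intracellular and a secreted form, which 1 value per gene cannot separate. Each run covers the 250 bases before the start, 5′ to 3′ on the plus strand, and capitals mark matches to the motifs named further on (chr2:24336610-24336859 and chr2:24345121-24345370).
Il1rn start 1: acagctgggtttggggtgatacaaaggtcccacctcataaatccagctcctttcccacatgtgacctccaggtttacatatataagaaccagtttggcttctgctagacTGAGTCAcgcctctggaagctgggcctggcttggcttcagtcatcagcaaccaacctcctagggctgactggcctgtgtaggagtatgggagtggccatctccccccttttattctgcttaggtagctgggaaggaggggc
Il1rn start 3: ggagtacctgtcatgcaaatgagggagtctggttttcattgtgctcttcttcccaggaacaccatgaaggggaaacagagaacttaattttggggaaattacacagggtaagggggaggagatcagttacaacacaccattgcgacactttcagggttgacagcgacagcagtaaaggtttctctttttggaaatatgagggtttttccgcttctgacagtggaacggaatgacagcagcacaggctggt

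No other antagonist or decoy was called. Il18bp, a secreted protein that captures IL-18, was listed at 0.596 FPKM in STHdhQ111 and 0.576 FPKM in STHdhQ7, with an interval in the authors' deposited table of -1.65 to 1.75 on the log2 scale (the authors' q = 0.995). Il13ra2, a receptor that binds IL-13 and is mostly regarded as a decoy, was listed at 0.535 FPKM in STHdhQ111 and 0.0597 FPKM in STHdhQ7. Il13ra2 had a log2 fold change of 3.17 in the authors' deposited table (implied SE 1.45, q = 0.157), so it was not called in spite of its size. Il1f5, the antagonist of the IL-36 receptor, and Il22ra2, a soluble decoy for IL-22, were listed at 0 in both lines.

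The called gene with the second lowest q among those that rose was Il6st, which encodes gp130, the signalling chain shared by the receptors of IL-6, IL-11, IL-27, LIF and oncostatin M. Il6st (mm9 chromosome 13, 113254278 to 113297068) was listed at 152 FPKM in STHdhQ111 and 41.7 FPKM in STHdhQ7, 3.64-fold higher. For Il6st the authors' deposited table gave a log2 fold change of 1.86 (implied SE 0.41, 95% interval 1.06 to 2.67, q = 0.000113.) The chains that bind IL-6 and IL-11 for gp130 were not called. Il6ra, which binds IL-6, was listed at 8.23 FPKM in STHdhQ111 and 13.9 FPKM in STHdhQ7 (the authors' deposited table, interval -1.55 to 0.03, q = 0.265). Il11ra1, which binds IL-11, was listed at 11.8 FPKM in STHdhQ111 and 13.8 FPKM in STHdhQ7 (the authors' deposited table, interval -1.13 to 0.68, q = 0.941). Only 45.7% of the 36-base words of Il11ra1 occurred in no other gene's transcripts, because of near-identical copies that include Il11ra2, and its locus overlaps that of Ccl27a, so its value is uncertain.

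Of the cytokines that act through gp130, Il6 had no test, at 0.374 FPKM in STHdhQ111 and 0.340 FPKM in STHdhQ7. Il11 was listed at 1.31 FPKM in STHdhQ111 and 1.51 FPKM in STHdhQ7 and was not called (the authors' deposited table, q = 0.972). Among related genes outside the Il symbols, the oncostatin M receptor Osmr was called higher, at 50.6 FPKM in STHdhQ111 and 16.5 FPKM in STHdhQ7 (the authors' deposited table, q = 0.000674). Leukaemia inhibitory factor (Lif), whose receptor also uses gp130, was called higher too, at 6.63 FPKM in STHdhQ111 and 2.09 FPKM in STHdhQ7 (the authors' deposited table, q = 0.00680). The LIF receptor Lifr was listed at 5.04 FPKM in STHdhQ111 and 3.67 FPKM in STHdhQ7 and was not called. The list of shared receptor chains and related cytokines held 16 tested genes. Of these, 2 were called higher (Lif and Osmr), none lower and 14 not, where 6.35% of all tested genes were called higher and 7.17% lower. By Cuffdiff's unadjusted p under 0.05, 2 of the 16 were higher and 2 lower. Their log2 ratios had a median of 0.34, against -0.05 for all tested genes. With so few calls, nothing particular to this list can be read from the counts.

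Both chains of the receptor that answers IL-4 and IL-13 outside the blood were present. Il13ra1, the chain that binds IL-13 and pairs with Il4ra, rose to 9.23 FPKM in STHdhQ111, against 2.78 FPKM in STHdhQ7 (mm9 chromosome X, 33652134 to 33711256). For Il13ra1 the authors' deposited table gave a log2 fold change of 1.73 (implied SE 0.46, 95% interval 0.83 to 2.63, q = 0.00214.) Il4ra was listed at 15.1 FPKM in STHdhQ111 and 19.0 FPKM in STHdhQ7 and was not called (the authors' deposited table, interval -1.08 to 0.42, q = 0.818). The ligands Il4 and Il13 were listed at 0 in both lines, and Il2rg, the common gamma chain with which Il4ra pairs on lymphocytes, was under 0.1 FPKM in both.

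The promoters of Il6st and Il13ra1 are shown because both genes rose. Their windows held 66.0% and 70.8% G and C, where the median promoter of the RefSeq table held 52.4%. The Il1rn windows, of the gene that rose most, held 53.2%, 48.4% and 46.8% at its 3 starts. Those of Il18rap and Il12rb2, which fell, held 42% and 50%. Il12rb1, which was also called higher, has no entry in the RefSeq promoter table and so no window here. The 2 windows shown are the 250 bases before the start on the plus strand of GRCm38.p6, chr13:112463820-112464069 and chrX:36111858-36112107, with capitals for motif matches.
Il6st: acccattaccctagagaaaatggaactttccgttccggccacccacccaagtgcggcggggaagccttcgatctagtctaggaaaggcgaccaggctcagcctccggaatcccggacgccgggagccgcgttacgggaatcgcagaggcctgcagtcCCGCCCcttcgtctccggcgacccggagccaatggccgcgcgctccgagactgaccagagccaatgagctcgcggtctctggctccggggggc
Il13ra1: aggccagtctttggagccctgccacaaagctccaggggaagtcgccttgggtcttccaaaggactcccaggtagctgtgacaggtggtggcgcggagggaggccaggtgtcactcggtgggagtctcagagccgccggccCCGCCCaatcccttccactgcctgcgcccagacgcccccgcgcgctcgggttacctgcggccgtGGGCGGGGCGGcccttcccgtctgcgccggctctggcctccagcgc

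The receptor chains of IL-12 were called in opposite directions. Il12rb1, a chain that the receptors of IL-12 and IL-23 share, was listed at 2.17 FPKM in STHdhQ111 and 0.481 FPKM in STHdhQ7 (mm9 chromosome 8, 73332348 to 73345322). For Il12rb1 the authors' deposited table gave a log2 fold change of 2.18 (implied SE 0.63, 95% interval 0.94 to 3.42, q = 0.00643.) Il12rb2, the chain that carries the IL-12 signal, was listed at 0.0259 FPKM in STHdhQ111 and 0.583 FPKM in STHdhQ7 (mm9 chromosome 6, 67242012 to 67326131). For Il12rb2 the authors' deposited table gave a log2 fold change of -4.49 (implied SE 1.62, 95% interval -7.67 to -1.31, q = 0.0437), the highest among the called interleukin genes. Both values of Il12rb2 were under 1 FPKM, and with 1 FPKM added its log2 ratio was -0.63, against 1.10 for Il12rb1. Il12rb2 also shares words with the adjoining gene Serbp1, with 61.5% of its 36-base words found in no other gene's transcripts. The Il23r gene beside it, the specific chain of the IL-23 receptor, was listed at 0.0121 FPKM in STHdhQ111 and 0.126 FPKM in STHdhQ7 and had no test. The ligand genes Il12a, Il12b and Il23a were under 0.1 FPKM in both lines.

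Il18rap, the accessory chain of the IL-18 receptor, fell. It was listed at 1.20 FPKM in STHdhQ111 and 6.86 FPKM in STHdhQ7 (mm9 chromosome 1, 40572207 to 40606142). For Il18rap the authors' deposited table gave a log2 fold change of -2.51 (implied SE 0.60, 95% interval -3.69 to -1.34, q = 0.000499.) Il18r1, the chain that binds IL-18 and without which Il18rap has no known ligand, was at 0.320 FPKM in STHdhQ111 and 0.443 FPKM in STHdhQ7, the highest level among the 57 untested genes. IL-18 itself was among the more abundant ligand transcripts, with Il18 at 6.90 FPKM in STHdhQ111 and 8.02 FPKM in STHdhQ7 (the authors' deposited table, interval -1.32 to 0.89, q = 0.961). Caspase 1 (Casp1), the protease that releases active IL-18, was at 0.0528 FPKM in STHdhQ111 and 0.228 FPKM in STHdhQ7 and had no test.

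The promoters of the called genes that fell are given for comparison with those above (250 bases before the start, GRCm38.p6, Il18rap on the plus strand at chr1:40515112-40515361 and Il12rb2 on the minus strand at chr6:67376189-67376438, capitals for motif matches).
Il18rap: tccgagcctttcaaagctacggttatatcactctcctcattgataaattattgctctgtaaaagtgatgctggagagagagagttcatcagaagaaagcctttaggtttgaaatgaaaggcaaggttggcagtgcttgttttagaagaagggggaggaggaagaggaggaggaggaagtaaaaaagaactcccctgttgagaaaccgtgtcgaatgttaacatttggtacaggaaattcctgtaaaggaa
Il12rb2: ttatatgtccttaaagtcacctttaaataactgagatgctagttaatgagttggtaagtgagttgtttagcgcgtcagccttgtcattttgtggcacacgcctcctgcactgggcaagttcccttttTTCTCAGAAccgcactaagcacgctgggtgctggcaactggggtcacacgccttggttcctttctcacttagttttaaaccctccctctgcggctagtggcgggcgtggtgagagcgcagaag

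Motifs were searched on both strands of these windows for the 5 called genes with an entry in the RefSeq promoter table (of 68 interleukin genes with one). GAAA, any 2 bases and GAAA again, a pair of half-sites of interferon response elements, was in 2.98% of all 32841 promoters and in none of these windows. TTCNNNGAA, the palindrome STAT proteins bind, was in 7.02% of all promoters and here in Il12rb2 only. TGANTCA, the AP-1 motif, was in 6.75% of all promoters and here in the first Il1rn window only. The NF-kappaB motif was in 7.25% of all promoters and in none of these windows. The GC box GGGCGG was in 32.7% of all promoters and here in Il6st (1 match) and Il13ra1 (3 matches). No window held matches to more than 1 of these motifs. These are matches of letters and do not show binding.

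**Figure D2:**
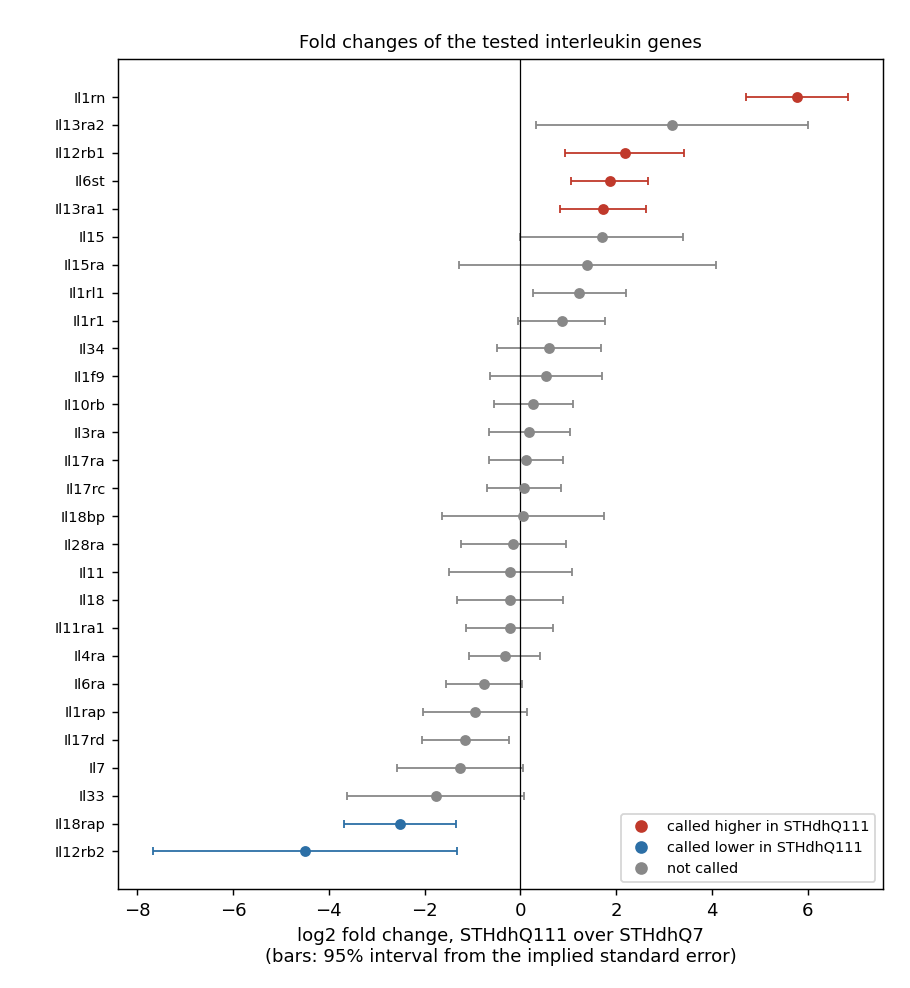
Log2 fold change of the 28 tested interleukin genes, STHdhQ111 over STHdhQ7, from the authors' deposited table, with 95% intervals from the implied standard error; red points were called higher, blue points called lower and grey points not called. Intervals of 19 genes include 0, and the widest among the called genes is that of Il12rb2.

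The most abundant interleukin gene in both lines was Il1rl1 (ST2), the receptor of IL-33, which was first known as a gene that serum induces in fibroblasts. It was listed at 208 FPKM in STHdhQ111 and 88.6 FPKM in STHdhQ7, which was 36.01% of the FPKM sum of all 85 genes in STHdhQ111 and 29.4% in STHdhQ7. For Il1rl1 the authors' deposited table gave a log2 fold change of 1.23 (implied SE 0.49, 95% interval 0.26 to 2.20, q = 0.0828), just outside the threshold. The gene gives a membrane receptor and a soluble form that traps IL-33, and 1 value per gene does not separate them. Il33, a nuclear protein released from damaged cells, was listed at 0.566 FPKM in STHdhQ111 and 1.93 FPKM in STHdhQ7 and was not called (the authors' deposited table, interval -3.62 to 0.08, q = 0.274).

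Il1rl1 lies in a row of 6 IL-1 type receptor genes that spans 473 kilobases of chromosome 1 (mm9, 40133057 to 40606142), and their values did not run together. Along the chromosome come Il1r2, Il1r1, Il1rl2, Il1rl1, Il18r1 and Il18rap. Il1rl1 and Il18rap, with only Il18r1 between them, had deposited log2 fold changes of opposite sign, and Il18rap was called while Il1rl1 was not. Il1rl2, the IL-36 receptor chain between Il1r1 and Il1rl1, was listed at 0.0559 FPKM in STHdhQ111 and at 0 in STHdhQ7. A second row of 6 genes on chromosome 2 (mm9, 24008692 to 24207011, 198 kilobases) holds Il1rn and the IL-36 type ligands. There Il1f8, Il1f5 and Il1f10 were listed at 0 in both lines, and Il1f6 was at 0.0214 FPKM in STHdhQ111 and 0 in STHdhQ7. Il1f9, the gene of IL-36 gamma, was transcribed at 3.12 FPKM in STHdhQ111 and 2.14 FPKM in STHdhQ7 and was not called (the authors' deposited table, q = 0.798).

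**Figure D3:**
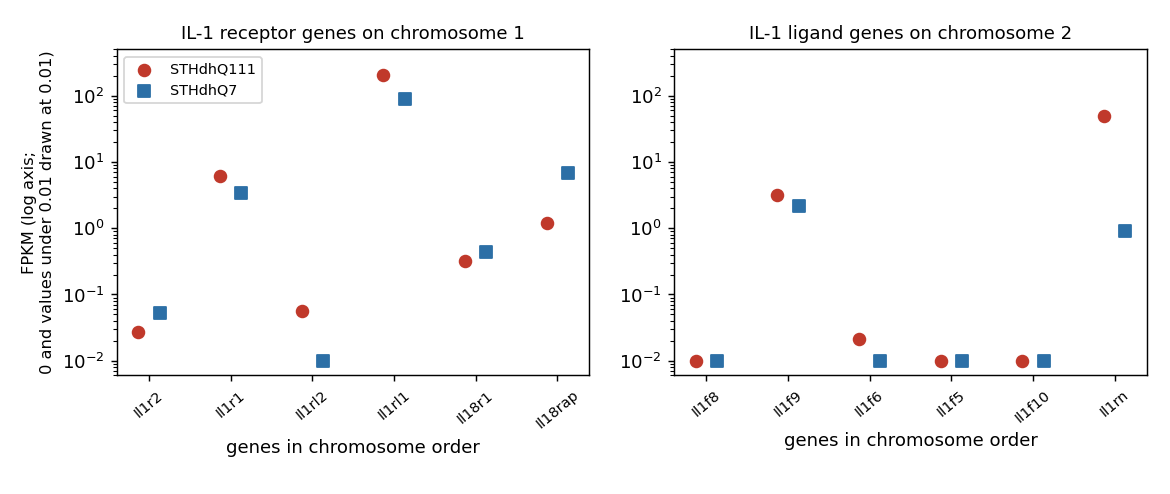
FPKM (log axis) of the 6 IL-1 type receptor genes on chromosome 1 and the 6 ligand and antagonist genes on chromosome 2, in chromosome order, in STHdhQ111 (red circles) and STHdhQ7 (blue squares); 0 and values under 0.01 are drawn at 0.01. Il1rl1 and Il1rn stand above the genes next to them, and Il18rap is the gene of the first row that was called lower.

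Genes beside the called ones were read against the 13.5% of all tested genes that were called. Within 100 kb of Il12rb1, 12 other genes had a test and none was called by Cuffdiff, and 0 of the 11 with a fold change had an unadjusted p under 0.05. Within the same distance, 1 other gene had a test beside each of Il12rb2, Il13ra1, Il18rap, Il1rn and Il6st. Of these 5 only Ankrd55, near Il6st, was called, at 1.08 FPKM in STHdhQ111 and 0.128 FPKM in STHdhQ7 (the authors' deposited table, q = 0.0445). By unadjusted p in the authors' deposited table, Ankrd55 (0.00577), Il1rl1 beside Il18rap (0.0128) and Dock11 beside Il13ra1 (0.0256) were under 0.05, and Pax8 beside Il1rn (0.0708) and Serbp1 beside Il12rb2 (0.578) were not. Psd4, also near Il1rn, had no test and was at 0.456 FPKM in STHdhQ111 and 0.0283 FPKM in STHdhQ7. With so few neighbours, nothing particular to these loci can be read from the counts.

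Some receptor chains at 1 FPKM or more were listed at close values in both lines. Not being called does not show that they were alike. Il17rc was listed at 35.5 FPKM in STHdhQ111 and 33.7 FPKM in STHdhQ7, and its partner Il17ra at 8.97 FPKM in STHdhQ111 and 8.27 FPKM in STHdhQ7. Together they form the receptor of IL-17A and IL-17F. The interval in the authors' deposited table was -0.71 to 0.86 for Il17rc (q = 0.988) and -0.66 to 0.90 for Il17ra (q = 0.976). Il3ra, the binding chain of the IL-3 receptor, was listed at 23.0 FPKM in STHdhQ111 and 20.3 FPKM in STHdhQ7 (the authors' deposited table, interval -0.66 to 1.03, q = 0.953), but its signalling partner Csf2rb was at 0.0684 FPKM in STHdhQ111 and 0.0103 FPKM in STHdhQ7. Il10rb, a chain shared by the receptors of IL-10, IL-22 and interferon lambda, was listed at 14.7 FPKM in STHdhQ111 and 12.2 FPKM in STHdhQ7 (the authors' deposited table, interval -0.55 to 1.09, q = 0.899). Il28ra, the chain specific to interferon lambda, was listed at 1.20 FPKM in STHdhQ111 and 1.32 FPKM in STHdhQ7 (the authors' deposited table, q = 0.979). None of these was called, and the interval of Il28ra, the widest of them, ran from -1.24 to 0.94 on the log2 scale.

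Il17rd, also called Sef and known as an inhibitor of FGF signalling, was listed at 1.35 FPKM in STHdhQ111 and 2.98 FPKM in STHdhQ7. For Il17rd the authors' deposited table gave a log2 fold change of -1.15, with an interval of -2.06 to -0.24 and a q of 0.0855. The intervals of 9 tested interleukin genes excluded 0, the 6 called ones and Il1rl1, Il17rd and Il13ra2, whose q was above 0.05.

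Tested ligands differed little or with wide errors. Il34, which acts on the receptor Csf1r, was listed at 5.80 FPKM in STHdhQ111 and 3.81 FPKM in STHdhQ7 (the authors' deposited table, interval -0.48 to 1.69, q = 0.706). Csf1r was at 0.289 FPKM in STHdhQ111 and 0.00491 FPKM in STHdhQ7, with no test. Il15, a survival factor of lymphocytes that is presented to them by Il15ra, was listed at 2.47 FPKM in STHdhQ111 and 0.762 FPKM in STHdhQ7 (the authors' deposited table, interval 0.00 to 3.40, its lower end just below 0, q = 0.237). Il15ra was listed at 1.01 FPKM in STHdhQ111 and 0.383 FPKM in STHdhQ7 (the authors' deposited table, q = 0.743). Il7, the lymphocyte growth factor of stromal cells, was listed at 0.897 FPKM in STHdhQ111 and 2.15 FPKM in STHdhQ7 (the authors' deposited table, interval -2.58 to 0.06, q = 0.271). Its receptor chain Il7r was under 0.1 FPKM in both lines.

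The chains were set side by side to see which receptors had every chain transcribed. Of 27 receptors, 7 had every chain at 1 FPKM or more, and for each of the 7 this held in both lines. They were the receptors of IL-1, IL-33, IL-6, IL-11, IL-17A or IL-17F, and interferon lambda, and the Il4ra and Il13ra1 pair. The lowest chain of the Il4ra and Il13ra1 pair was Il13ra1, at 9.23 FPKM in STHdhQ111 and 2.78 FPKM in STHdhQ7. For IL-6 the lowest chain was Il6ra, not the gp130 chain that rose. The highest ligand of these 7 receptors was Il33 in STHdhQ7 (1.93 FPKM), and in STHdhQ111 it was Il11 (1.31 FPKM). The remaining 20 lacked at least 1 chain, among them every receptor that needs Il2rg or Csf2rb. FPKM of RNA does not show how much protein reaches the surface.

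**Figure D4:**
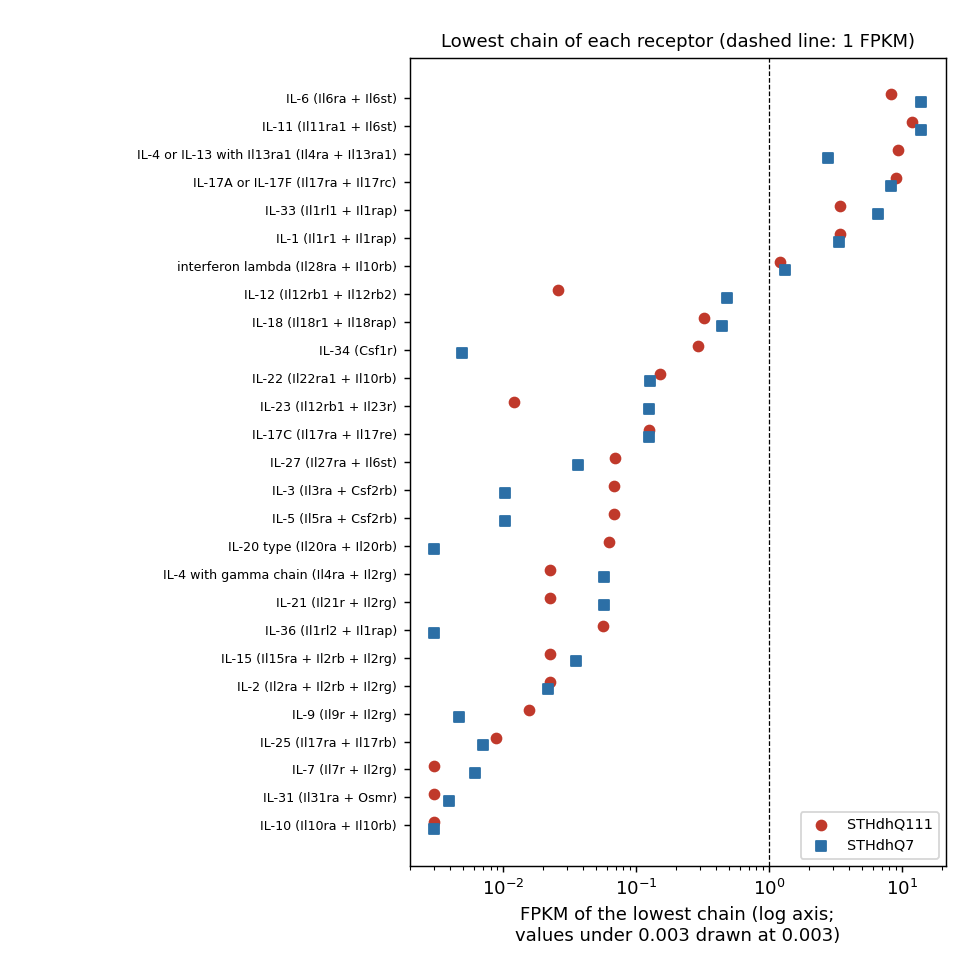
FPKM (log axis) of the lowest chain of 27 interleukin receptors in STHdhQ111 (red circles) and STHdhQ7 (blue squares), with the chains in parentheses and a dashed line at 1 FPKM; values under 0.003 are drawn at 0.003. Points of 7 receptors lie right of the line in both lines, and no receptor lies right of it in 1 line alone.

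The 57 untested genes all lay under 0.5 FPKM. Of these, 20 were listed at 0 in both lines and 10 at 0 in 1 line, and 28 were above 0 in at least 1 line but under 0.1 FPKM in both. The 9 at 0.1 FPKM or more in either line were Il18r1, Il20rb, Il17d, Il6, Il21r, Il22ra1, Il17c, Il23r and Il17re. Il20rb, a chain of the IL-20 type receptors, was at 0.291 FPKM in STHdhQ111 and 0.424 FPKM in STHdhQ7, while its partner Il20ra was at 0.0621 FPKM in STHdhQ111 and 0 in STHdhQ7. Il17d, a cytokine found in tissue outside the immune system, was at 0.399 FPKM in STHdhQ111 and 0.224 FPKM in STHdhQ7. Il17re, which pairs with Il17ra to bind IL-17C, was at 0.125 FPKM in STHdhQ111 and 0.124 FPKM in STHdhQ7. Of the cytokines known from helper T cells, Il4, Il13, Il9, Il10, Il17a, Il22 and Il31 were listed at 0 in both lines, and Il5 was at 0.0382 FPKM in STHdhQ111 and 0 in STHdhQ7.

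Downstream of the receptors, calls in the pathway lists stand beside 6.35% of all tested genes called higher and 7.17% called lower. The list of JAK, STAT and SOCS genes also holds the phosphatase genes Ptpn6 and Ptpn11 and Pias1 to Pias4, none of them called. Of its 24 tested genes, 4 were called higher and none lower, with a median log2 ratio of 0.40. By Cuffdiff's unadjusted p under 0.05 the counts were 7 and 0. Among those called higher were Stat2 (48.5 FPKM in STHdhQ111 and 8.04 FPKM in STHdhQ7), which also carries interferon signals, Jak3 and Socs3. Socs3, which binds gp130 and switches its signal off, was at 29.1 FPKM in STHdhQ111 and 8.74 FPKM in STHdhQ7 (the authors' deposited table, log2 fold change 1.74, implied SE 0.42, q = 0.000583). Stat3, the main STAT of gp130, was at 62.5 FPKM in STHdhQ111 and 30.4 FPKM in STHdhQ7 and was not called (the authors' deposited table, q = 0.0572). Stat6, the STAT of IL-4 and IL-13, was listed at 39.8 FPKM in STHdhQ111 and 1.07 FPKM in STHdhQ7, but its implied SE was 2.08 and it was not called (the authors' deposited table, q = 0.0785).

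Target lists of these cytokines changed in both directions or held few calls. Of 14 tested genes known as IL-6 type targets, 3 were called higher (Socs3, Bcl3 and Lbp), 1 lower (Ccnd1) and 10 not, with a median log2 ratio of 0.33. Bcl3, an NF-kappaB cofactor, was at 22.8 FPKM in STHdhQ111 and 2.22 FPKM in STHdhQ7. In the list of IL-1 signalling genes 1 of 20 tested was called, the adaptor Myd88, which was higher at 37.4 FPKM in STHdhQ111 and 16.2 FPKM in STHdhQ7, and the list's median was 0.23. Of 13 tested genes known as IL-1 type targets, 2 were called higher (Cxcl1 and Nfkbiz), 5 lower (Vcam1, Mmp3, Cxcl5, Icam1 and Mmp13) and 6 not, with a median of -0.30. Vcam1, an adhesion molecule, fell to 0.766 FPKM in STHdhQ111, against 52.6 FPKM in STHdhQ7. Of 9 tested genes of IL-17 signalling, 2 were called higher (Cxcl1 and Nfkbiz), 1 lower (Cxcl5) and 6 not (median 0.38). That list shares Cxcl1, Nfkbiz, Cxcl5, Zc3h12a, Lcn2 and Ccl20 with the IL-1 type targets, and Cebpb with the IL-6 type targets. Only 5 of the 13 IL-4 and IL-13 targets had a test, and 1 was called, the matrix protein gene Postn, which was lower (median -0.58). Counts by Cuffdiff's unadjusted p under 0.05, higher first, were 6 and 3 for IL-6 type targets and 3 and 5 for IL-1 type targets. They were 3 and 0 for IL-1 signalling, 4 and 1 for IL-17 signalling, and 0 and 1 for IL-4 and IL-13 targets. Over all 7 lists, 11 of 91 distinct tested genes were called higher and 7 lower, with a median of 0.21, where 6.35% of all tested genes were called higher and 7.17% lower.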

How the data were processed

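Per the labels' protocols, polyadenylated RNA was fragmented and copied with random primers, by a method not described as marking strand. Reads were handled with TopHat (1.4.0), Bowtie (0.12.7), Cufflinks (2.0.2) and Cuffdiff on the build mm9, per the submitters' processing notes. Options and annotation: not given in the sources used here. Per the file headers, the authors deposited 1 FPKM per gene and line, combined over replicates, with a log2 fold change, a test score, a p-value and a q-value. No test, spread or left-out replicate could be computed here. The labels do not name separate cultures, and p-values may then reflect technical spread alone.

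The p-value followed the normal tail of the deposited score (largest gap 2.7e-06), and the q-value was its Benjamini-Hochberg form (largest gap 2.2e-06). The size of the fold change divided by that of the score, whose sign runs the other way, therefore gave the implied standard error, and 1.96 times it the 95% intervals. Low values showed no steps from whole reads, so depth is unknown and no counting error can be given. Coordinates are 1-based.

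The members, lists and naming rule were chosen with earlier results of these data known. Every tested member is named. Genes were called at a q of 0.05, and log2 ratios of lists used a pseudocount of 0.5. Promoters are from RefSeq GRCm38.p6, and 36-base words were sought on either strand of the GENCODE M21 transcripts. Only the calling of genes was tested on simulated data, drawn with the same implied standard errors that the calls then used. Alternatives were other thresholds, pseudocounts, filters and recentring. Python 3.11.15, numpy 2.4.6, pandas 2.3.3, scipy 1.17.1 and matplotlib 3.10.9 were used.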

Additional observations from a re-analysis of the deposited data

How the results depend on the processing

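For each of the 28 tested interleukin genes 4 alternatives were tried, pseudocounts of 0.1, 0.5 and 1, and recentring. Recentring was by -0.05, the median log2 fold change of expressed genes. No log2 value changed sign, but this was fixed in advance. The same pseudocount added to both values cannot change a sign. Recentring raised each value by 0.05, and the negative log2 fold change smallest in size was -0.15 (Il28ra). The 4 genes called higher held at a q of 0.01, where Il12rb2 was lost and 1 member was called lower (4.62% of all tested genes were called higher and 4.99% lower). At a q of 0.1 Il1rl1 was added to the genes called higher, 5 in all, and Il17rd to those called lower, 3 in all (7.35% and 8.72% of all tested genes). By Bonferroni 1 member was called higher, Il1rn, and 0 lower (2.40% and 2.13%). Where the mean of both lines had to reach 1 FPKM, 1 was called lower, since Il12rb2 is not in that set (5.90% of all such genes were called higher and 6.35% lower). With a minimum of 4-fold on the pseudocount scale 1 was called higher (Il1rn) and 1 lower (Il18rap), beside 2.41% and 2.59% of all tested genes.

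Of the 91 tested genes of the pathway lists, 7 were called higher and 6 lower at a q of 0.01 (4.62% and 4.99% of all tested genes). The counts were 13 and 8 at a q of 0.1 (7.35% and 8.72%) and 3 and 4 by Bonferroni (2.40% and 2.13%). At 4-fold or more they were 3 and 7 (2.41% and 2.59%), and with recentring 12 and 7 (6.68% and 6.75%). With a mean of 1 FPKM or more they were 11 and 6 (5.90% and 6.35% of all such genes). The cause of these differences between settings was not tested. With pseudocounts of 0.5 and 1 the log2 ratio was 5.16 and 4.73 for Il1rn, 1.45 and 1.10 for Il12rb1, and -1.04 and -0.63 for Il12rb2. The median of the tested members ran from 0.09 to 0.14 over its alternatives, and that of all members above 0 in either line was 0.04. No paired analysis was possible because each line has 1 combined value. Depth is unknown, and its part in the calls of low genes was not tested.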

Other observations

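Of the cytokine and receptor genes named here none was called, and Cntf, which had the largest difference of them, had a large error. Cntf, a ciliary neurotrophic factor that signals through gp130, was listed at 0.623 FPKM in STHdhQ111 and 24.4 FPKM in STHdhQ7, yet its implied standard error in the authors' deposited table was 8.96 on the log2 scale (q = 0.910). Ctf1, cardiotrophin, was listed at 1.03 FPKM in STHdhQ111 and 3.52 FPKM in STHdhQ7 (the authors' deposited table, q = 0.0798). The interferon receptor genes Ifnar1, Ifnar2, Ifngr1 and Ifngr2 were listed between 13.3 and 43.3 FPKM in STHdhQ111 and between 10.1 and 28.2 FPKM in STHdhQ7, and none was called.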
